A study of Pimephales promelas with 10 samples.

Results

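A set of 292 probes on a fathead minnow array gave a lower signal in the testes of every tank exposed to IMX-101 than in the testes of every control tank. They were taken from 49849 gene probes, of which they make up 0.586%. The log2 level of a probe is the log2 of its background-corrected spot signal minus the log2 of the 75th percentile of the gene spots on the same array, averaged over the probe's spots. A probe was a member if at least 0.5 of its spots were flagged well above background on each of the 10 arrays, if the highest of the 5 IMX-101 levels lay below the lowest of the 5 control levels, and if the mean IMX-101 level minus the mean control level was at most -0.4. The condition on background was met by 19331 probes, called detected below. The members were thus chosen by the measured levels of both groups. The direction and size of the differences and the lack of overlap are therefore descriptions, with no test.

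Adult male Pimephales promelas were held for 21 days, 2 fish to a tank and 5 tanks to a treatment, in 12.6 mg/L IMX-101 or in water without it (0 mg/L). Each array carried whole testis RNA of a single tank, so 5 IMX-101 arrays stood against 5 control arrays. RNA came from both fish of a tank where both extracts met the quality criteria and from 1 fish otherwise. Both fish contributed to 24 of the 31 replicates of the whole study, and the sources used here do not say which. The labels give the concentration as the sum of measured NTO, measured NQ and nominal DNAN, and the design text says that little of the DNAN put in was found in the water. No strain is given.

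IMX-101 is an explosive formulation made to resist accidental detonation, and its components are dinitroanisole (DNAN), nitrotriazolone (NTO) and nitroguanidine (NQ). NTO is known from rats to reduce testis weight and sperm production. In a fish testis, germ cells pass through mitosis, meiosis and sperm formation inside cysts built by Sertoli cells, and Leydig cells between the tubules make androgens. Whole testis RNA mixes all of these with blood and connective tissue, so that fewer cells of a type and less RNA per cell cannot be told apart in any value below. The probe names start with CONTIG, SINGLET, UF_Ppr_AF or UF_Ppr_AM and carry no gene symbol, and 0 of the 49849 names occurred in the RefSeq gene table of the species. The members are therefore given by probe name, with no gene, role or sequence, and the tissue label was not checked against marker genes.

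The 75th percentile intensity ran from 480.2 to 961.6 on IMX-101 arrays and from 641.7 to 893.1 on control arrays. Only 40.3% of the gene spots passed the scanner's test for being well above background on the array of IMX-101 replicate 5, against 82.0% to 85.1% on the other 4 IMX-101 arrays and 81.4% to 86.5% on the control arrays. That array also had the highest floor: its lowest gene spot stood at an intensity of 38.8, against 2.26 to 3.47 on the other 9. In log2 levels this floor lay at -4.28, and the lowest member on that array lay at -1.89. Slide 1 held IMX-101 replicate 1 with control replicates 1, 2 and 3. Slide 2 held IMX-101 replicates 2 and 3 with control replicates 4 and 5, and slide 3 held IMX-101 replicates 4 and 5 alone.

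The members were moderately lower in IMX-101 testes, and the condition of a difference of at most -0.4 bears on the size. Their median difference was -0.57 log2 units, which is a signal 0.672 times that of controls, or 32.8% lower. Differences ran from -1.60 to -0.40, and 169 of the 292 lay between -0.6 and -0.4, while 12 were at -1 or beyond. Over all detected probes the median difference was -0.05, with the 5th and 95th percentiles at -0.50 and 0.65. The members are 1.51% of the detected probes. The same conditions turned round gave 39 probes that were higher in IMX-101 testes (0.202%), with a median difference of 0.77. With no condition on size, 404 detected probes (2.09%) were lower and 47 (0.243%) higher without overlap.

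Most groups were narrowly apart. The gap, meaning the lowest control level minus the highest IMX-101 level, had a median of 0.11 log2 units over the members and a maximum of 0.70. It was under 0.05 for 72 members and over 0.3 for 25. The edge of the size condition fell in a dense part of the data. Just inside it were SINGLET_6270, CONTIG7453 and UF_Ppr_AF_100955, each with a difference of -0.40, and just outside it SINGLET_13712, UF_Ppr_AF_110902 and UF_Ppr_AF_104260, also at -0.40 after rounding. In the plot of difference against gap, most detected probes with a difference of -0.4 or below lie under the line at 0, where at least 1 IMX-101 level reached the control range.

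**Figure D1:**
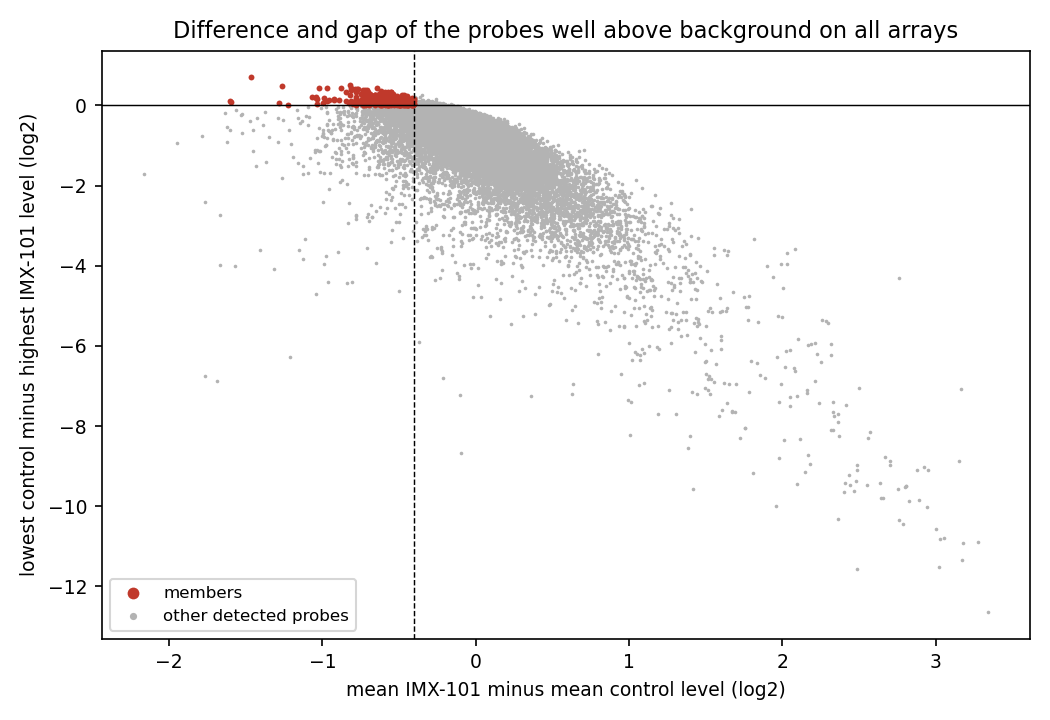
Each point is 1 of the 19331 detected probes, with its mean IMX-101 minus mean control level (log2) on the x axis and its lowest control minus highest IMX-101 level (log2) on the y axis. The 292 members (red) lie left of the dashed line at -0.4 and above 0, and their gaps reach 0.70.

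Of the single arrays, IMX-101 replicates 5 and 1 changed the number of members most when left out. Without IMX-101 replicate 5 the same conditions gave 1087 probes, 285 of the 292 among them, and without IMX-101 replicate 1 they gave 534, with 271 of the 292. Leaving out any other array gave 315 to 417. The array of IMX-101 replicate 5 had the fewest spots above background, and its part in the number was not tested beyond this count. With only the arrays of slides 1 and 2, a choice made after the data were seen, there were 1998, and 266 of the 292 were among them. In all these counts the condition on background covered only the arrays kept, so more probes could enter. Fewer arrays also make it easier for the groups not to overlap. Shares of the probes detected on the arrays kept were not computed.

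Mean differences of at least 1 log2 unit occurred in 12 members, and they fell into different patterns across the tanks. SINGLET_26730 and UF_Ppr_AF_112653 had the largest differences and split the control tanks. SINGLET_26730 had log2 levels of -1.60, -1.52, -1.64, -1.36 and -1.33 in IMX-101 replicates 1 to 5, against -1.22, 1.21, 0.55, 0.97 and -0.94 in control replicates 1 to 5. UF_Ppr_AF_112653 had -1.66, -1.30, -1.63, -1.27 and -1.45 in IMX-101 testes and -1.19, 1.25, 0.48, 1.03 and -0.90 in control testes. The 5 exposed tanks were alike, while 3 control tanks were high and control replicates 1 and 5 lay close to the exposed ones. The gaps were thus only 0.11 and 0.07, beside mean differences of -1.60 for both probes. The SD between arrays was 0.14 in IMX-101 and 1.12 in control testes for SINGLET_26730 (n = 5 each).

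In SINGLET_24326 and UF_Ppr_AF_101860 a single exposed tank enlarged the difference. SINGLET_24326 had log2 levels of -2.82, 0.15, 0.01, 0.27 and -0.10 in IMX-101 replicates 1 to 5, against 0.28, 0.44, 0.46, 1.44 and 1.00 in control replicates 1 to 5. UF_Ppr_AF_101860 had -2.72, 0.16, -0.06, 0.09 and -0.22 in IMX-101 testes and 0.22, 0.53, 0.47, 1.37 and 1.08 in control testes. IMX-101 replicate 1 lay far below the other exposed tanks, which came up to the edge of the control range. Without it the difference was -0.64 in place of -1.22 for SINGLET_24326, and -0.74 in place of -1.28 for UF_Ppr_AF_101860.

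SINGLET_4150 had the same low tank. Its log2 levels were -1.10, 0.10, 0.09, 0.10 and 0.46 in IMX-101 testes and 1.13, 1.72, 0.64, 0.85 and 0.50 in control testes. Its difference was -1.04 with all arrays and -0.78 without IMX-101 replicate 1, and the gap was 0.04.

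SINGLET_44479 and UF_Ppr_AF_106414 combined close control tanks with a wide spread among the exposed ones. SINGLET_44479 had log2 levels of -3.09, -1.34, -1.19, -2.29 and -1.39 in IMX-101 testes, against -0.41, -0.19, -0.46, -0.50 and -0.44 in control testes, a difference of -1.46. Its gap of 0.70 was the widest of all members. UF_Ppr_AF_106414 had -3.03, -1.30, -1.25, -2.10 and -1.07 in IMX-101 testes and -0.49, -0.20, -0.58, -0.56 and -0.59 in control testes, a difference of -1.27 and a gap of 0.48. IMX-101 replicates 1 and 4 were lowest for both probes. The SD between arrays was 0.81 in IMX-101 and 0.12 in control testes for SINGLET_44479, and 0.82 in IMX-101 and 0.17 in control testes for UF_Ppr_AF_106414 (n = 5 each).

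The remaining 5 of these 12 probes were lower in the exposed tanks without 1 tank standing alone. SINGLET_7161 had log2 levels of -1.47, -1.12, -1.66, -1.99 and -1.61 in IMX-101 testes, against -0.32, -0.48, -0.67, -0.68 and -0.59 in control testes, with a gap of 0.44. SINGLET_41302 had -1.67, -1.41, -1.26, -1.39 and -0.93 in IMX-101 testes and -0.25, 0.15, -0.10, -0.51 and -0.74 in control testes. Both had IMX-101 means near 0.49 times the control means, at 0.493 and 0.485. SINGLET_32557 averaged -1.26 ± 0.52 in IMX-101 and -0.19 ± 0.21 in control testes (SD, n = 5 each). SINGLET_10791 averaged -1.22 ± 0.47 and UF_Ppr_AF_114364 averaged 1.37 ± 0.55 in IMX-101 testes, against -0.18 ± 0.33 and 2.41 ± 0.30 in control testes. For these 3 probes the IMX-101 SD was larger than the control SD, and the gaps were 0.22, 0.16 and 0.20.

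**Figure D2:**
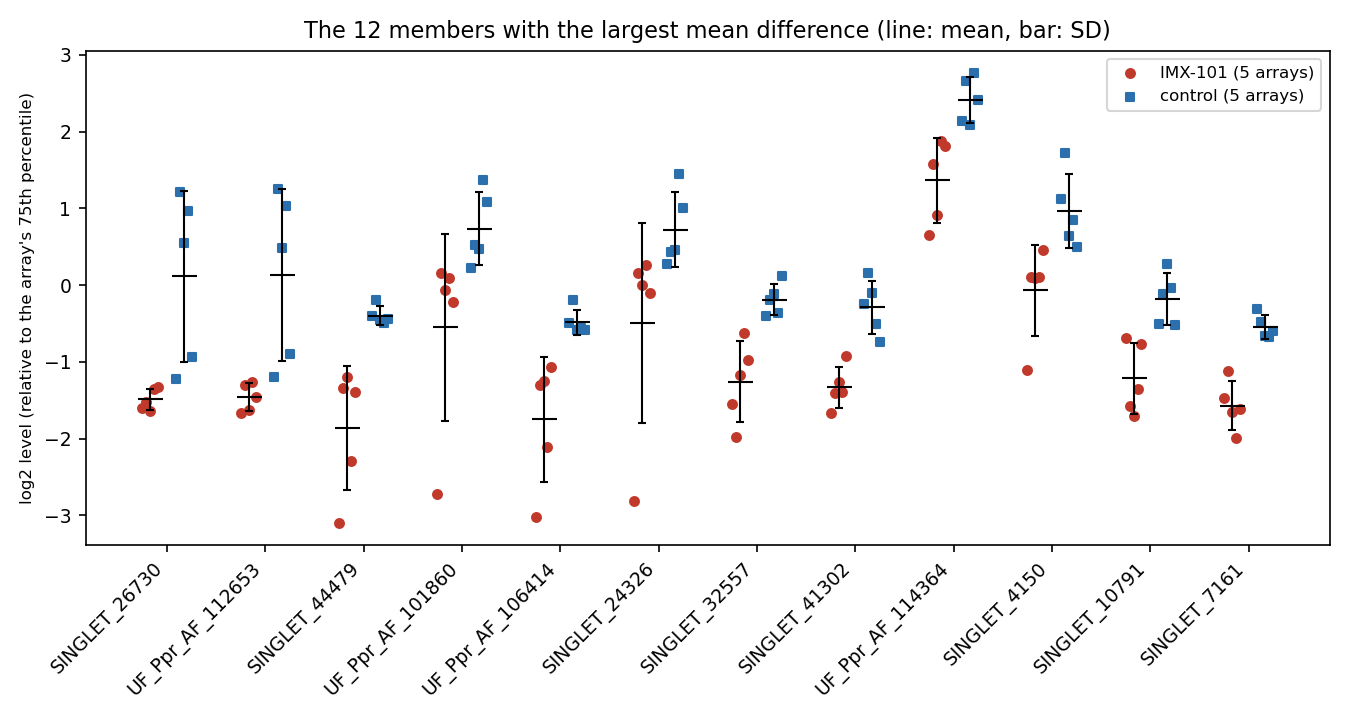
Log2 levels of the 12 members with the largest mean difference on the 5 IMX-101 arrays (red circles) and the 5 control arrays (blue squares), with the mean (line) and SD (bar) of each group. SINGLET_26730 has a tight exposed group beside controls from -1.22 to 1.21, while in SINGLET_24326 IMX-101 replicate 1 lies at -2.82 below the other exposed arrays.

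Some members were set apart by more than the spread within groups. In 7 of them the gap was wider than the whole range of either group: CONTIG3029, UF_Ppr_AF_102923, SINGLET_4403, SINGLET_13402, UF_Ppr_AF_105517, CONTIG9525 and SINGLET_31029. This grouping, and with it the naming of SINGLET_13402 and UF_Ppr_AF_105517, was chosen after the values were seen. The rule requires a gap above 0 and favours small spread, so it bears on this count. No share over all detected probes was computed. CONTIG3029 had log2 levels of -1.33, -1.29, -1.14, -1.25 and -1.24 in IMX-101 testes, against -0.51, -0.16, -0.52, -0.63 and -0.35 in control testes, a signal 43.3% lower. SINGLET_4403 had -0.04, -0.17, -0.10, -0.14 and -0.15 in IMX-101 testes and 0.67, 0.46, 0.65, 0.44 and 0.40 in control testes, a signal 36.0% lower. Its SD of 0.05 between exposed arrays was small beside the difference of -0.64. SINGLET_31029 had 0.88, 1.02, 0.74, 0.89 and 1.01 in IMX-101 testes and 1.45, 1.52, 1.45, 1.52 and 1.35 in control testes, a signal 31.8% lower.

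The other 4 had similar shapes. UF_Ppr_AF_102923 averaged -1.26 ± 0.14 in IMX-101 and -0.49 ± 0.14 in control testes, and CONTIG9525 averaged -1.09 ± 0.11 in IMX-101 and -0.53 ± 0.12 in control testes (SD, n = 5 each). SINGLET_13402 ran from 1.47 to 1.80 in IMX-101 and from 2.15 to 2.32 in control testes. UF_Ppr_AF_105517 ran from -1.87 to -1.58 in IMX-101 and from -1.29 to -1.05 in control testes. Other members with wide gaps, SINGLET_35196 and SINGLET_13353, had gaps of 0.45 and 0.44 beside differences of -0.88 and -0.81. Their exposed ranges were wider, from 0.17 to 0.95 in SINGLET_35196 and from -1.87 to -1.43 in SINGLET_13353.

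**Figure D3:**
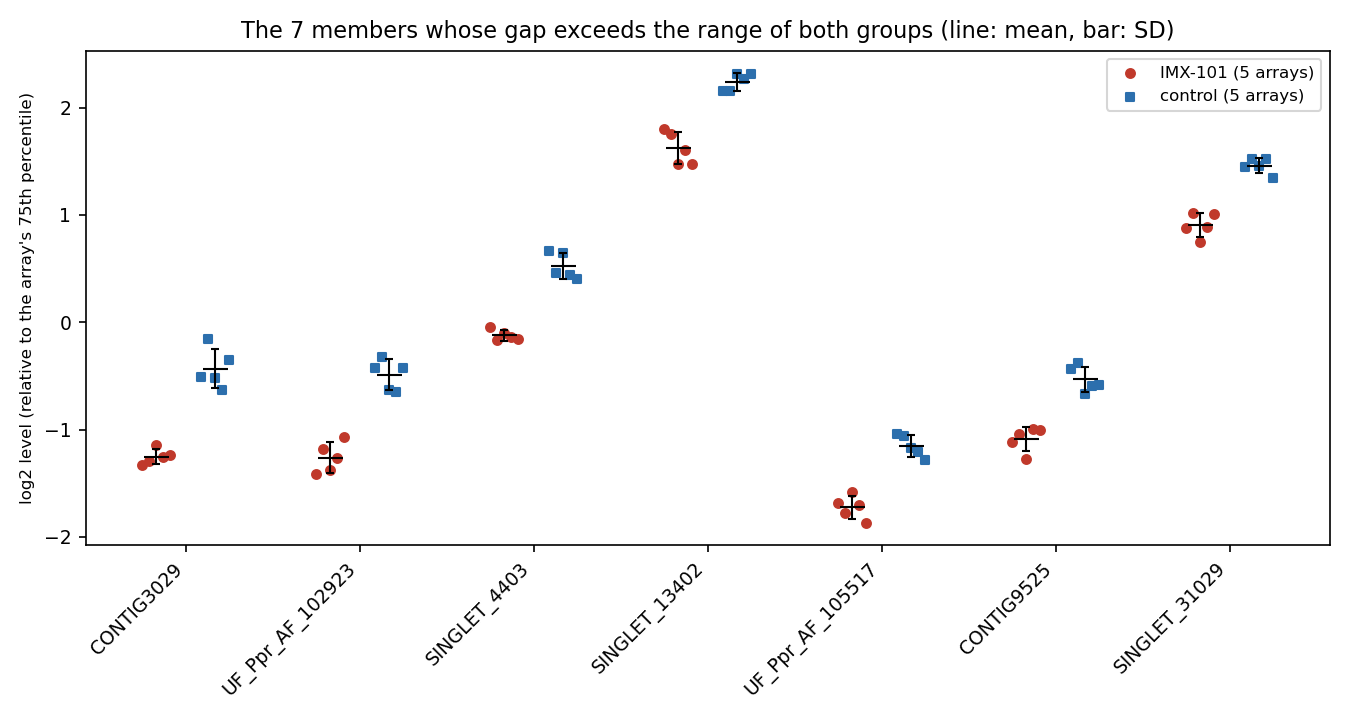
Log2 levels of the 7 members whose gap exceeds the range of both groups, on the 5 IMX-101 arrays (red circles) and the 5 control arrays (blue squares), with the mean (line) and SD (bar) of each group. The exposed levels of CONTIG3029 lie between -1.33 and -1.14, below control levels that start at -0.63.

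Mean control levels of the members ran from -1.49 to 4.86. The lowest lay above the 5th percentile of all detected probes, at -2.11. Of the 6 with the highest control signal, UF_Ppr_AF_105855 had log2 levels of 4.09, 3.72, 2.63, 3.69 and 3.62 in IMX-101 testes, against 4.18, 4.84, 4.12, 4.27 and 4.25 in control testes. Its exposed replicate 3 and control replicate 2 lie away from the rest, and the difference was -0.78 with a gap of 0.03. SINGLET_4539 averaged 4.36 ± 0.25 in IMX-101 and 4.86 ± 0.18 in control testes (SD, n = 5 each). The differences of UF_Ppr_AF_116488, CONTIG7453, CONTIG7745 and UF_Ppr_AF_102456 lay between -0.49 and -0.40. At the other end, SINGLET_30949, SINGLET_26168 and SINGLET_35561 had differences of -0.53, -0.41 and -0.54 and gaps of 0.02, 0.02 and 0.06. Brightness of a spot depends on the probe as well as the transcript, so these are not ranks of abundance.

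The members' control levels had a lower median and a narrower range than those of all detected probes. Their mean control level had a median of 0.05, with the 5th and 95th percentiles at -1.15 and 2.32. For all detected probes the median was 0.52 and the percentiles -2.11 and 4.39. The rule uses the control levels and requires lower but detected levels on every exposed array, so it bears on this range. The members also varied less between tanks of a group than detected probes in general. Their median SD was 0.21 in IMX-101 and 0.18 in control testes, against 0.35 in IMX-101 and 0.26 in control testes over all detected probes. The condition of no overlap favours probes with small spread, so this is no finding about the members. The IMX-101 SD exceeded the control SD in 62.0% of members and in 68.8% of detected probes.

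Repeated spots give the error of spotting and scanning within an array. The array held 48 of the members in 2 spots, 1 in 10 spots and 243 in a single spot. Probes printed in more than 1 spot made up 16.8% of members and 22.2% of all detected probes. In the members with 2 spots, the differences measured by either spot were a median of 0.05 apart, and 0.28 at most. Both spots met the conditions on size and overlap by themselves for 38 of the 48. A single spot did for 9, among them UF_Ppr_AF_112653, and neither did for 1, UF_Ppr_AF_103598. The 10 spots of UF_Ppr_AF_114347 gave differences from -0.85 to -0.60, and 7 of them met both conditions alone. The same spots were averaged into the levels that chose the members, so these counts follow largely from the rule. Averaged over its spots it had log2 levels of -1.74, -1.44, -2.24, -1.45 and -1.52 in IMX-101 testes and -1.04, -0.79, -0.999, -0.66 and -1.26 in control testes. Spots of a probe share the RNA and the array, so they measure scanning and printing error and not the spread between tanks.

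Several members had nearly the same pattern across tanks. Likeness was measured as the Pearson correlation over the 10 arrays after the mean of each group was taken out, so that the difference between groups adds nothing to it. At a lowest pairwise correlation of 0.95, 29 members fell into 14 families, 13 of 2 probes and 1 of 3. The share of all detected probes in such families was not computed, so the count is no trait of the members. The family of 3 joined SINGLET_33116, SINGLET_47476 and UF_Ppr_AF_113812, with differences of -0.99, -0.97 and -0.96. The pairs named above, SINGLET_26730 with UF_Ppr_AF_112653, SINGLET_44479 with UF_Ppr_AF_106414, SINGLET_24326 with UF_Ppr_AF_101860 and CONTIG7745 with UF_Ppr_AF_102456, are among the families of 2. So is SINGLET_4150 with SINGLET_33762, although their differences were -1.04 and -0.56. Whether the probes of a family measure the same transcript was not tested, since no sequences are at hand.

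Outside the set, the probe most like a member did not always share its difference. For 24 members some detected probe reached a correlation of 0.98 or more, and for 11 of them that probe was itself a member. The other 13 best-matching probes had a median difference of -0.08, from -0.91 to 0.15, and 2 of them were at -0.4 or below. The largest of these was SINGLET_48976 at -0.91, matched to SINGLET_4150, and the next SINGLET_45393 at -0.55, matched to SINGLET_6695. SINGLET_41523, with a difference of -0.71, was best matched by UF_Ppr_AF_101249 at 0.15. The best match was taken over all detected probes and is a description without a test. How many of all detected probes have a match this close was not computed.

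Over all pairs of members, those within families included, correlations from tank to tank were mostly low and slightly above those of detected probes. The correlation between pairs of members, with group means taken out, had a median of 0.13 (middle 50% from -0.15 to 0.40), against 0.03 (from -0.25 to 0.32) over all pairs of detected probes. All pairs share the same 10 arrays and their scaling. The rule acts on the spread within groups, so it may bear on the members' correlations. The probes whose 10 levels followed the median profile of the members most closely were UF_Ppr_AF_102923, CONTIG9525, SINGLET_46357, SINGLET_31029 and CONTIG3029, with Pearson correlations from 0.98 down to 0.97 over the 10 arrays, and all 5 are members. That profile is made from the members and holds the step between groups, so members are favoured as its closest matches. SINGLET_46357 had log2 levels of -0.25, 0.00, -0.29, -0.08 and -0.02 in IMX-101 testes, against 0.77, 0.99, 0.45, 0.44 and 0.40 in control testes.

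By tank, the median level of the members was -0.61, -0.47, -0.59, -0.56 and -0.49 in IMX-101 replicates 1 to 5, against 0.09, 0.19, -0.04, -0.01 and -0.01 in control replicates 1 to 5. The rule fixes that every exposed median lies below every control median. Control replicate 2 was the highest control. Over all detected probes the medians ran from 0.48 to 0.59 in IMX-101 and from 0.52 to 0.56 in control testes. IMX-101 replicate 1 was the lowest exposed tank for 81 members and replicate 3 for 77, or 27.7% and 26.4%, close to their shares of 24.5% and 26.4% over all detected probes. Other shares lay further off. The rule uses the highest exposed level, the lowest control level and the group means, so it bears on such shares. IMX-101 replicate 2 was the highest exposed tank for 29.1% of members, against 11.0% of all detected probes. Control replicate 3 was the lowest control for 31.8% of members, against 21.9% of all detected probes. Control replicate 2 was the highest control for 150 of the 292, or 51.4%, against 26.9% of all detected probes. Leaving it out made the difference smaller than leaving out any other array for 76 members, and the median difference was then -0.53. In 230 members the mean difference stayed at -0.4 or below whichever single array was left out. The members were chosen on these same levels, so the rule bears on this count, and no share over all detected probes was computed.

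**Figure D4:**
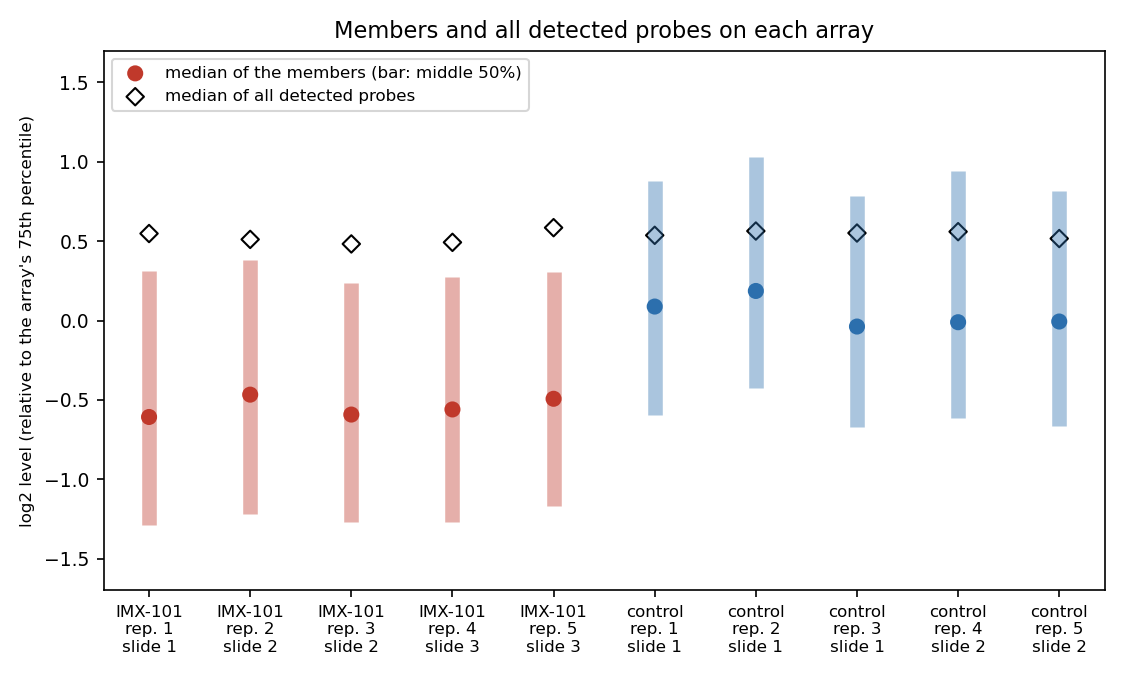
Median log2 level of the 292 members (filled circle, with a bar over the middle 50%) and of all detected probes (open diamond) on each of the 10 arrays, IMX-101 arrays in red and control arrays in blue. The members' medians lie between -0.61 and -0.47 on IMX-101 arrays and between -0.04 and 0.19 on control arrays.

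Within slides the sizes were similar for the set and uneven for single probes. The median difference of the members was -0.62 within slide 1, from 1 exposed and 3 control arrays, and -0.52 within slide 2, from 2 arrays of each group. Over all detected probes the same medians were -0.05 and -0.12. The 2 exposed arrays of slide 3, set against all control arrays, gave -0.56 for the members and -0.01 for all detected probes. A difference of -0.4 or below was seen for 234 members within slide 1, 225 within slide 2 and 239 on slide 3, and for 143 in all of them. These are 80.1%, 77.1%, 81.8% and 49.0% of the members, against 22.6%, 21.0%, 11.7% and 1.68% of all detected probes. The rule used the same levels and largely fixes the members' shares. Slide 3 held no control array, so slide and exposure cannot be told apart there.

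For single members the slides could differ several-fold. SINGLET_24326 had a difference of -3.21 within slide 1 and -1.14 within slide 2, and SINGLET_44479 had -2.74 and -0.80. In the other direction, SINGLET_4539 had -0.15 within slide 1 and -0.90 within slide 2, and UF_Ppr_AF_116488 had -0.13 and -0.52. CONTIG3029 was steadier, at -0.94 and -0.73.

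**Figure D5:**
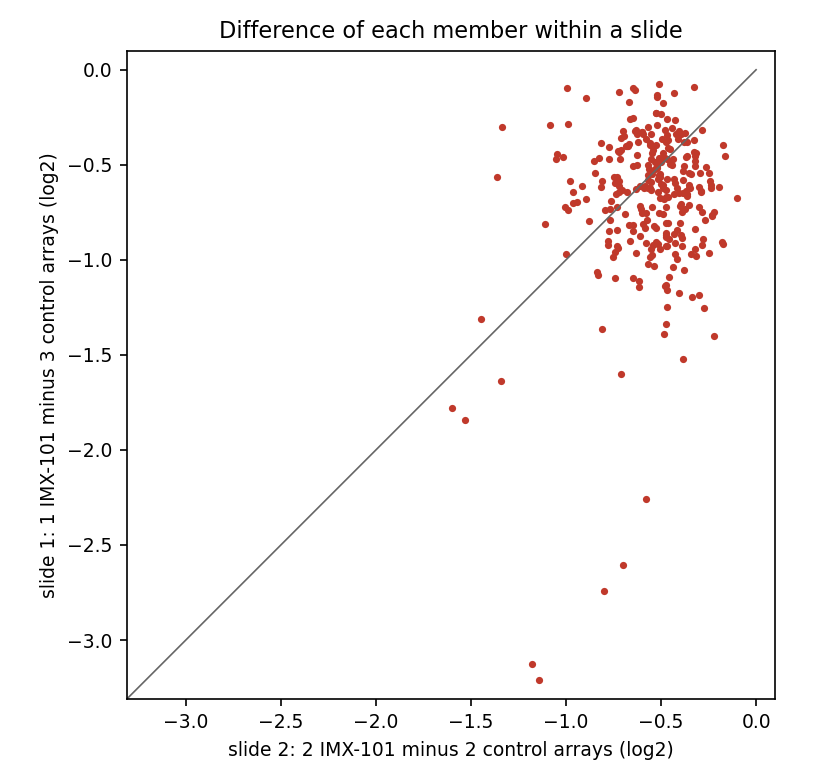
Mean IMX-101 minus mean control level (log2) of each of the 292 members within slide 2 (x axis, 2 arrays of each group) and within slide 1 (y axis, 1 IMX-101 and 3 control arrays), with the line of equal values. The medians are -0.52 and -0.62, and SINGLET_24326, with a low IMX-101 replicate 1, lies far below the line at -1.14 and -3.21.

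The members were spread over the array, and most of its kinds of probe names occurred among them. Of the 349 spots that hold members, 50.1% lay in the first 50% of the rows and 48.7% in the first 50% of the columns, against 50.6% and 50.2% for spots of all detected probes. SINGLET probes made up 53.8% of the members, CONTIG probes 18.8% and UF_Ppr_AF probes 27.4%. Among detected probes these shares were 40.1%, 21.9% and 37.3%. Among the 39 probes that were higher in IMX-101 testes they were 59.0%, 5.13% and 35.9%, so a raised SINGLET share was not particular to the members. None of the members was a UF_Ppr_AM probe, of which 113 were detected, or 0.585% of the detected probes. Families of like probes often join a SINGLET or CONTIG with a UF_Ppr_AF name, so these counts may include a transcript more than once, and they carry no test.

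In the fit across all 43084 probes tested, no member passed the correction for multiple tests. Limma with Benjamini-Hochberg adjustment called 0 probes lower (0%) and 3 higher (0.00696%) at an adjusted p under 0.05. At an unadjusted p under 0.05 it gave 2623 lower probes, 6.09% of those tested, and 1131 higher ones, 2.63%. With normexp background correction the same counts were 1440 lower and 1259 higher, and within slide 2 they were 1227 lower and 1378 higher. Slide 1 held a single exposed array, so its counts are left out, and slide 2 does not speak for it. With quantile normalization they were 3145 lower and 912 higher, and with slide as a fixed block 2926 lower and 1342 higher. All 292 members were tested and 289 lay under that unadjusted threshold, as the rule that chose them on the same contrast makes likely, and limma adjusted p ran from 0.372 to 0.616. The SE of a member's difference had a median of 0.16 log2 units. CONTIG3029 had a difference of -0.82 with SE 0.14 (limma adjusted p = 0.372), and SINGLET_7161 of -1.02 with SE 0.18 (limma adjusted p = 0.372). SINGLET_24326, whose difference was enlarged by 1 low tank, had -1.22 with SE 0.56 (limma adjusted p = 0.575).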

How the data were processed

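Total RNA (80 ng) of each tank was labelled with Cy3 and hybridised to a one-colour Agilent array. Per the file headers, the deposited intensity is the processed signal of Agilent Feature Extraction 10.7.3.1, background-subtracted and on a linear scale. The authors' deposited table matched log2 levels centred on each probe's median (Pearson correlation across probes of at least 0.999), so it holds log2 differences without absolute levels. Its scaling is not stated. The medians of its columns in replicate order were -0.152, 0.00191, -0.138, 0.0772 and 0.178 for IMX-101, and 0.0366, 0.0373, -0.022, 0.022 and -0.024 for control.

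Levels were computed from 61053 gene spots per array, 0 of them saturated. Outlier spots, 131 to 281 on an array, were kept, as the rule does not mention them. Probes that rose above background on 3 or more arrays within a group were fitted with limma 3.58.1 in R 4.3.3, with group as the only term, after a test on simulated data. The precision is limited by the number of arrays. Summaries used pandas 2.3.3 and numpy 2.4.6 under Python 3.11.15, and matplotlib 3.10.9 drew the plots. Tanks are the replicates.

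Named probes are the 12 with the largest difference, the 6 with the widest gap, the 6 with the highest and the 3 with the lowest control level, 3 on either side of the size threshold, members printed in 5 or more spots, and the 5 most like the median profile. The members and these lists were chosen with earlier results of these data known. Lists of testis genes were not used, since no probe has a gene name here. Replicate numbers were not used to pair the arrays in the main fit. Alternatives covered scaling, background correction, filters, slide, replicate number and arrays left out.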

Additional observations from a re-analysis of the deposited data

Results flagged for a closer look

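In 78 groups of 5 values (array values, medians of the members and named probes), 10 held a single value far from the other 4. Chance gives about 1 in 20 for independent groups that were not selected. The named probes were chosen by their levels and some are nearly the same in profile, so that rate is no yardstick for them. For IMX-101 replicate 5 the share of spots well above background was 40.32% and the lowest intensity was 38.8, against 81.95% to 85.09% and 2.256 to 3.471 on the other IMX-101 arrays.

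IMX-101 replicate 1 stood apart on the low side in UF_Ppr_AF_101860 (-2.719, the others from -0.2154 to 0.1574), in SINGLET_24326 (-2.816, the others from -0.09664 to 0.2663) and in SINGLET_4150 (-1.10, the others from 0.0889 to 0.459). IMX-101 replicate 3 did so in SINGLET_26168, at -2.194 with the others from -1.762 to -1.693. Control replicate 2 stood apart on the high side in SINGLET_44479 (-0.189, the others from -0.496 to -0.407), in UF_Ppr_AF_106414 (-0.197, the others from -0.587 to -0.491) and in UF_Ppr_AF_105855 (4.844, the others from 4.118 to 4.266). Control replicate 5 did so in CONTIG7453, at 4.571 with the others from 4.001 to 4.136. UF_Ppr_AF_101860 and SINGLET_24326, and likewise SINGLET_44479 and UF_Ppr_AF_106414, are pairs of nearly the same profile.

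Over all 292 members a lone low IMX-101 array occurred in 15 (5.14%, against 2.51% of all detected probes), and a lone high control array in 14 (4.79%, against 2.40%). The low array was replicate 3 in 6 of them and replicate 1 in 5, and the high control was replicate 2 in 10. A lone low value in one group or a lone high value in the other leaves the groups apart, so the rule bears on these shares.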

How the results depend on the processing

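Only the arrays of slides 1 and 2 were an alternative added after seeing the data. The number of members was 1649 with no condition on overlap, 1998 with the arrays of slides 1 and 2 only, and 315 to 1087 with an array left out (1087 without IMX-101 replicate 5, 534 without IMX-101 replicate 1). It was 209 to 364 under the other alternatives, of which median centring kept 190 of the 292 in 235 and normexp 203 in 253. With arrays left out, the condition on background covered only the arrays kept, so the pool of detected probes could differ. The median difference of the members lay between -0.62 and -0.50 in every alternative. All 672 values of the 32 named members stayed below 0 under 21 alternatives, as the rule largely fixes, and 25 moved by more than the SD between arrays, 22 of them within a slide.

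No alternative called a probe lower. The 3 probes called by limma became 0 with quantile normalization (4057 at an unadjusted p under 0.05) and with normexp (2699). The number was also 0 with the fit restricted to probes detected everywhere (1648) and within slide 2 (2605). It was 1 with median centring, with slide as a fixed block and with trended robust variance. Counts within slide 1 are left out, as it held a single exposed array. Among probes at an unadjusted p under 0.05, normexp gave 1440 lower and 1259 higher and slide 2 gave 1227 lower and 1378 higher, against 2623 lower and 1131 higher with the settings of the report. Quantile normalization gave 3145 lower and 912 higher, and slide as a fixed block 2926 lower and 1342 higher. With an array left out limma called 0 to 2 (2560 to 5214 at an unadjusted p under 0.05). With the replicate block it called 0 (3427 at an unadjusted p under 0.05). The median difference of the members was -0.574 as before, which the balanced layout of replicate numbers fixes in advance. By the design, same-numbered arrays came from different tanks. Their deviations from the group means correlated between -0.286 and 0.0876. These few correlations cannot tell whether same-numbered arrays shared a step of handling.

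Detection was required on all 10 arrays, and 40.3% of spots met it on the array of IMX-101 replicate 5, so dim probes are not described here.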

Other observations

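Lower and higher probes differed in how often the groups were apart. Of the 19331 detected probes, 1649 had a difference of -0.4 or below and 1977 had a difference of 0.4 or above. No overlap was seen in 17.7% of the former and in 1.97% of the latter. Differences of 0.4 or above thus outnumbered those of -0.4 or below, while probes without overlap were mostly lower. No test of this was run. The IMX-101 SD exceeded the control SD in 68.8% of detected probes, and its part in this was not tested. Counts of higher probes without overlap are given for the settings of the report only.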
